A study of Mus musculus with 9 samples.

Results

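The genes of the zona pellucida and of the oocyte-secreted protein family were followed across the days on which the antrum first forms in ovarian follicles of juvenile mice. The members were taken by gene symbol from the deposited expression tables, namely Zp1, Zp2, Zp3, Oosp1, Oosp2 and Oosp3, which are 6 of the 52025 genes listed. Ovaries of Kunming mice were sampled at postnatal day (PD) 14, PD15 or PD16, giving 9 libraries (3 per age). The labels name no treatment or allele, and age is the only label that differs between the groups. Each value is an FPKM, that is, sequenced fragments scaled for transcript length and for the depth of the library. Levels can thus be compared between genes, but FPKM does not give the libraries a common total. The FPKM of all genes summed to 308363 in replicate 2 of PD14, the lowest, and to 342803 in replicate 3 of PD15, the highest. Scaling to a common total (TPM) is among the alternatives given below. The labels give the tissue as ovary but the source as granulosa cells, whereas the study's methods describe RNA from ovaries. All 29 oocyte markers matched were expressed, with a summed level of 1709 to 2368 FPKM per library. Theca and interstitial markers reached 1196 to 2245 FPKM, most of it from Hsd3b1 (mean 1449 FPKM), while the others averaged 4.19 to 43.1 FPKM. The libraries were thus treated as whole ovary. The study describes its transcriptome replicates as n = 3 independent ovaries, and p-values measure the spread between these libraries.

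The zona pellucida is the glycoprotein coat that a growing oocyte secretes around itself. ZP1, ZP2 and ZP3 share the ZP domain, through which they polymerize into filaments, and ZP1 dimers link these filaments. ZP2 is the protein that sperm bind in the mouse and that ovastacin cleaves after fertilization to block further sperm, and ZP3 pairs with ZP2 along the filament. The Oosp genes encode small secreted proteins made by oocytes and related to the placental protein PLAC1. Transcription of the Zp genes depends on FIGLA, a basic helix-loop-helix factor that binds E-boxes, and Oosp1 has been linked to the oocyte homeobox factor NOBOX.

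In the GENCODE M21 annotation of GRCm38, Zp3 lies at chr5:135980099-135988624 on the plus strand with 8 exons, 1272 coding bases and untranslated regions of 35 and 13 bases at the 5′ and 3′ ends. Zp2 lies at chr7:120126772-120145291 on the minus strand with 18 exons and 2139 coding bases. Zp1 lies at chr19:10914287-10920632 on the minus strand with 12 exons and 1869 coding bases. The Oosp genes form a cluster within 64596 bases of chromosome 19. Oosp2 (chr19:11647279-11660559) and Oosp1 (chr19:11667460-11691150) are on the minus strand, and Oosp3 (chr19:11697055-11711874) is on the plus strand. Their coding sequences of 504, 606 and 585 bases are shorter than those of the Zp genes. A processed pseudogene, Gm19224, lies within the Oosp3 locus on the opposite strand, and its level was 0 to 0.0529 FPKM, far below that of Oosp3. No other member overlapped an annotated gene.

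The sequence upstream of the start is shown for Zp3, Oosp2 and Oosp1, the members held by the RefSeq promoter table (GRCm38.p6), because both families have factors with a described recognition sequence. Capitals mark CANNTG, the E-box, searched on both strands, and positions count from the start of transcription in RefSeq. The stretches are chr5:135979855-135980098 (plus strand) for Zp3, chr19:11660560-11660809 (minus strand) for Oosp2 and chr19:11691151-11691301 (minus strand) for Oosp1. Each runs from position -250 to where the GENCODE M21 gene begins, which is at position -7 for Zp3, -1 for Oosp2 and -100 for Oosp1 as the last base shown. GENCODE thus begins Oosp1 further upstream than RefSeq does.
Zp3 upstream: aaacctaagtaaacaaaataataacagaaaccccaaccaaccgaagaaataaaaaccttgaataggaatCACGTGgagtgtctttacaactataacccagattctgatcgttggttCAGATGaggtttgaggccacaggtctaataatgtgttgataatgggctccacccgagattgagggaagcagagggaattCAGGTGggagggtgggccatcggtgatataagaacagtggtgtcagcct
Oosp2 upstream: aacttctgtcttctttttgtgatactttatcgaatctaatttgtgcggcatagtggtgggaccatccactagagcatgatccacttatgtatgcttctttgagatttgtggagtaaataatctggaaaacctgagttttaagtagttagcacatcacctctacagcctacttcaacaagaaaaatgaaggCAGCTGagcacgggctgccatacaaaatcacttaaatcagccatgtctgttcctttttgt
Oosp1 upstream: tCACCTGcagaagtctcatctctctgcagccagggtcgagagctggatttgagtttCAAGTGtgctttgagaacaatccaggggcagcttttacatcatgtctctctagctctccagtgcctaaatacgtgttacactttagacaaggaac

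In the window from 250 bases before to 50 bases after the start, Zp3 held 4 E-boxes, beginning at positions -181, -134, -55 and 8. Oosp1 held 5 E-boxes, of which those at -249 and -194 are in the stretch shown, and Oosp2 held 1, at -60. The Oosp1 E-boxes at -93, -59 and -48 are upstream of the RefSeq start but lie within the gene as GENCODE M21 places it. E-boxes are common, since 72.3% of 32851 promoters of the same length held at least 1, with a median of 1. The letters TAATTG, a NOBOX element, occurred in none of these 3 windows and in 8.0% of all promoters. No other letters were searched for NOBOX, so this does not show that the windows lack sites for it. Zp1, Zp2 and Oosp3 had no entry.

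The libraries held 20369006 to 28730960 fragments, as read from the smallest steps of the FPKM values, and 93.3% to 93.8% of low values were whole fragments within 0.02. The 54 values of the 6 genes were examined in the same way, and all 54 came out as whole fragments. Zp2 was the most deeply covered, with 10556 to 22890 fragments per library, and Zp3 had 8286 to 15827. Zp1 had 3641 to 6568 and Oosp1 1372 to 2662. Oosp2 was the most thinly covered, with 249 to 610 fragments, and Oosp3 had 292 to 625. At the fewest fragments, counting alone gives an SD of 0.973% for Zp2 but 6.34% for Oosp2 and 5.85% for Oosp3. Replicate 3 of PD15 was the deepest library and had the highest share of FPKM from mitochondrial genes, 6.27% against 5.19% to 5.92% in the other 8 libraries. It also held the highest value of 5 of the 6 genes, and its part in the results was not tested beyond leaving it out.

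The 6 genes kept the same order of level in all 9 libraries, namely Zp3, Zp2, Zp1, Oosp1, Oosp2 and Oosp3. Zp3 averaged 1.49 to 1.57 times Zp2 on the 3 days, and Zp2 averaged 2.11 to 2.31 times Zp1. Zp1 was closer to Oosp1, at 1.25 to 1.54 times its level. At PD15 the lowest Zp1 value, 97.1 FPKM, was just above the highest Oosp1 value, 95.3 FPKM. Oosp1 was 2.96 to 3.51 times Oosp2. Oosp2 and Oosp3 differed least, by 1.11 to 1.21 times, and their libraries overlapped at PD14 and PD15. Among the 15495 genes tested, Zp3 ranked from 65 to 138 in level over the libraries, Zp2 from 127 to 253 and Zp1 from 305 to 624. Oosp1 ranked from 485, whereas Oosp2 and Oosp3 ranked no higher than 1896 and 2352.

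Zp3 was the most abundant member. Its values were 352, 309 and 386 FPKM at PD14 (349 ± 38.5, mean ± SD, n = 3), 411, 375 and 416 FPKM at PD15 (401 ± 22.6) and 263, 277 and 288 FPKM at PD16 (276 ± 12.6). Every PD16 library lay below every library of the earlier days, while PD14 and PD15 overlapped.

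Zp2, the sperm-binding member, measured 236, 197 and 248 FPKM at PD14 (227 ± 26.7, n = 3). At PD15 its values were 258, 254 and 292 FPKM (268 ± 21.1), each above all PD14 values. At PD16 they were 171, 171 and 185 FPKM (176 ± 8.20), each below all values of the earlier days. The days were thus fully separated for Zp2.

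Zp1, the cross-linking member, measured 105.8, 90.7 and 103 FPKM at PD14 (99.9 ± 8.08, n = 3) and 130.2, 120.3 and 97.1 FPKM at PD15 (116 ± 17.03). It measured 77.2, 83.4 and 88.8 FPKM at PD16 (83.1 ± 5.81). PD16 was again below both earlier days in every library. Replicate 3 of PD15 had the lowest Zp1 of that day although it had the highest Zp2 and Zp3.

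Oosp1 measured 66.5, 58.6 and 69.3 FPKM at PD14 (64.8 ± 5.52, n = 3), 70.8, 75.7 and 95.3 FPKM at PD15 (80.6 ± 12.95) and 68.3, 67.1 and 64.5 FPKM at PD16 (66.6 ± 1.90). All PD15 libraries were above all others, and PD14 and PD16 overlapped. Oosp2 measured 17.3, 15.2 and 22.9 FPKM at PD14 (18.5 ± 3.96), 23.6, 26.8 and 31.3 FPKM at PD15 (27.2 ± 3.89) and 22.8, 21.4 and 20.9 FPKM at PD16 (21.7 ± 0.992). PD15 was the highest day without overlap, and the PD16 values lay within the PD14 range.

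Oosp3 measured 16.0, 14.7 and 19.3 FPKM at PD14 (16.6 ± 2.36, n = 3), 20.0, 21.1 and 26.4 FPKM at PD15 (22.5 ± 3.45) and 18.2, 20.7 and 19.2 FPKM at PD16 (19.3 ± 1.26). PD15 was above PD14 in every library but overlapped PD16. Between its lowest and highest library each gene spanned a narrow range, from 1.58 times for Zp3 to 2.06 times for Oosp2. Replicate 2 of PD14 was the lowest library for all 3 Oosp genes.

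**Figure D1:**
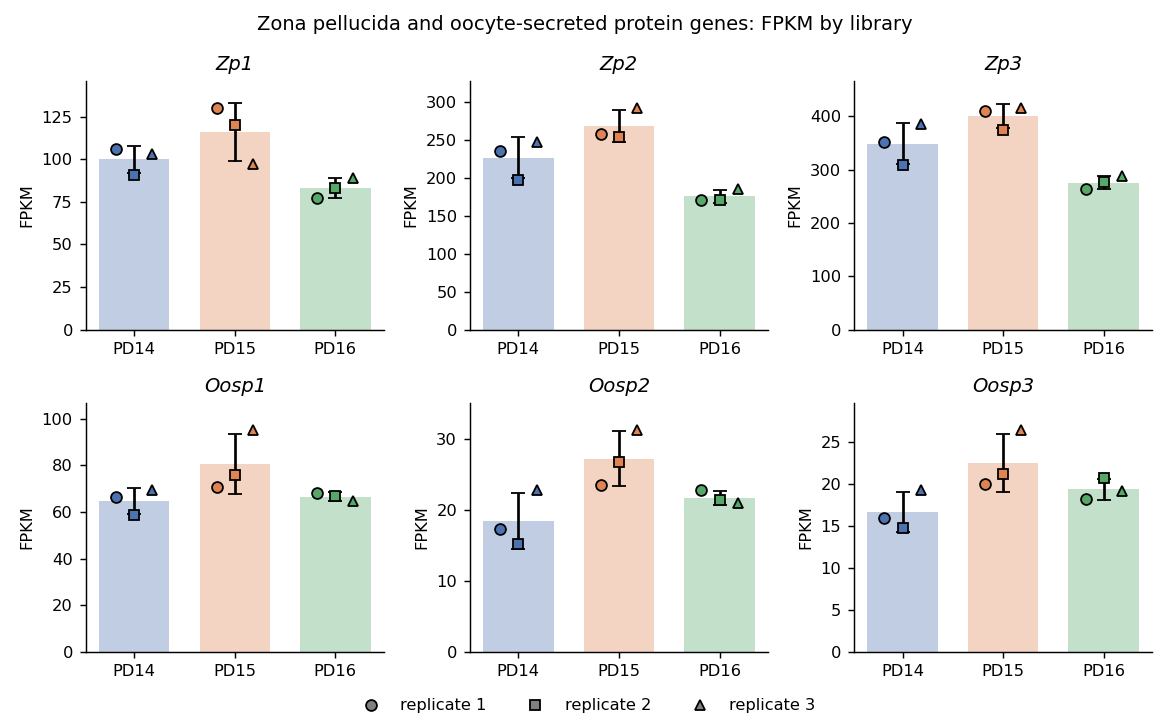
FPKM (vertical axes, each from 0) of the 6 genes at PD14, PD15 and PD16. Points are libraries, with a marker for each replicate number, and bars and error bars are mean ± SD (n = 3). Zp1, Zp2 and Zp3 are lowest at PD16 in every library, and the Oosp genes have their highest mean at PD15.

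The question of the PD15 and PD14 comparison is whether these transcripts moved at the start of antrum formation. All 6 genes had higher means at PD15, and 4 of them (Zp2, Oosp1, Oosp2 and Oosp3) had no overlap between the days, against 10.4% of all genes tested that were higher without overlap. None passed limma's test on log2(FPKM + 1) at an adjusted p of 0.05 over all genes, a threshold met by 0.678% of genes. Without adjustment, 4 of the 6 were higher at a limma p below 0.05, as were 7.22% of all genes tested. The greatest difference was that of Oosp2, 1.47 times the PD14 mean, with a log2 difference of 0.55 ± 0.14 (SE, 95% interval 0.23 to 0.86, limma adjusted p = 0.125). Oosp3 differed by 0.41 (95% interval 0.15 to 0.68, limma adjusted p = 0.158) and Oosp1 by 0.30 (0.06 to 0.55). Without replicate 3 of PD15 the Oosp1 difference was 0.18. The Zp genes differed by 0.20 (Zp1), 0.25 (Zp2) and 0.20 (Zp3), with limma adjusted p-values from 0.308 to 0.436. Without replicate 2 of PD14 the differences were 0.15 for Zp2 and 0.12 for Zp3. Zp1 gave 0.12 without replicate 1 of PD15 and 0.33 without replicate 3 of PD15. The median over the 6 genes was 0.27, beside 0.01 over all genes tested.

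From PD15 to PD16 Zp2 fell by 34.5% in mean FPKM. Its log2 change was -0.61 ± 0.10 (SE, 95% interval -0.84 to -0.37), and it was the only member to pass limma's test over all genes (adjusted p = 0.0427). The threshold was met by 0.729% of the genes tested. The call was narrow: leaving out single libraries lost it in 8 of 9 fits, with adjusted p-values up to 0.133, and testing every gene above 0 gave 0.125. In these fits the log2 change stayed between -0.64 and -0.54. Zp3 had a log2 difference of -0.54 ± 0.10 (limma adjusted p = 0.0526) and Zp1 one of -0.47 ± 0.11 (limma adjusted p = 0.101). All PD16 libraries were below all PD15 libraries for both, as for Zp2. The Oosp genes gave differences of -0.26 (Oosp1), -0.30 (Oosp2) and -0.20 (Oosp3), with limma adjusted p-values from 0.317 to 0.493. Without replicate 3 of PD15, their highest library, these differences were -0.14, -0.20 and -0.08. Oosp1 and Oosp2 did not overlap between the days, and Oosp3 did. In all, 6 of 6 means were lower at PD16, 5 without overlap, against 9.73% of all genes that were lower without overlap. The median over the 6 was -0.38, beside 0.01 over all genes tested.

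From PD14 to PD16 the log2 differences were -0.26 (95% interval -0.52 to -0.01) for Zp1, -0.36 (-0.59 to -0.13) for Zp2 and -0.33 (-0.56 to -0.11) for Zp3. Those of the Oosp genes were 0.04 (-0.20 to 0.29) for Oosp1, 0.24 (-0.07 to 0.56) for Oosp2 and 0.21 (-0.06 to 0.48) for Oosp3. These positive values leaned on replicate 2 of PD14, the lowest library of all 3 Oosp genes, without which they were -0.03 for Oosp1, 0.12 for Oosp2 and 0.13 for Oosp3. Without replicate 3 of PD14 Oosp2 gave 0.40 and Oosp1 0.09. None of the 6 passed limma's test over all genes, which 4.25% of genes did, and the lowest adjusted p was 0.0805, for Zp2. Without adjustment, 3 of the 6, the Zp genes, were lower at a limma p below 0.05, as were 11% of all genes tested. All 3 Zp genes were lower at PD16 without overlap, as were 13.5% of all genes, and the Oosp genes overlapped. All 3 comparisons share libraries, so these differences are not independent of those given for PD15.

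**Figure D2:**
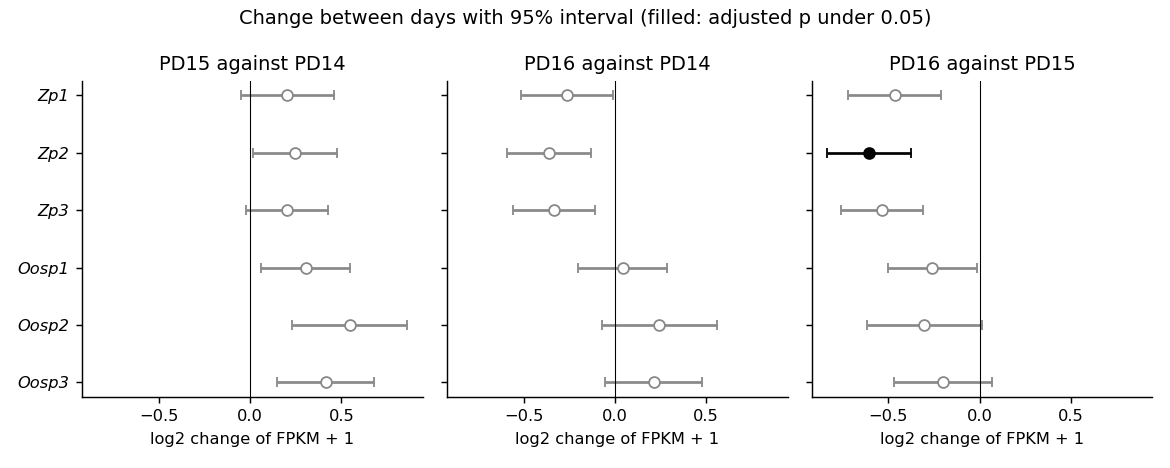
Log2 difference of FPKM + 1 between days (horizontal axes) for each gene, with the 95% interval of the limma fit over 9 libraries. The filled point, Zp2 at PD16 against PD15, is the only difference with an adjusted p under 0.05, and for PD16 against PD14 the Zp genes lie left of 0 and the Oosp genes right of it.

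The summed FPKM of the 3 genes was 676 ± 71.9 at PD14, 785 ± 30.9 at PD15 and 535 ± 25.6 at PD16 (n = 3). Zp3 made up 51.7%, 51.0% and 51.6% of this sum on the 3 days, Zp2 33.5%, 34.2% and 32.9%, and Zp1 14.8%, 14.8% and 15.5%. The log2 ratio of Zp3 to Zp2 was 0.62 ± 0.04 at PD14, 0.58 ± 0.08 at PD15 and 0.65 ± 0.04 at PD16, and the days overlapped in each comparison. The log2 ratio of Zp2 to Zp1 was 1.17 ± 0.08, 1.21 ± 0.32 and 1.07 ± 0.06. The wide spread at PD15 came from replicate 3, at 1.58, beside 0.98 and 1.07 in the other libraries of that day. Without it, the difference of this ratio from PD15 to PD16 went from -0.14 to 0.05, and that from PD14 to PD15 from 0.04 to -0.14. For Zp3 to Zp1, the difference from PD15 to PD16 went from -0.07 to 0.08. Ratios among the Oosp genes also overlapped between days in every comparison.

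The distance between the families was narrower at PD16 than at PD14. The mean log2 of the Zp genes exceeded that of the Oosp genes by 2.83 ± 0.09 at PD14, 2.63 ± 0.24 at PD15 and 2.35 ± 0.10 at PD16 (n = 3), which correspond to ratios of 7.11, 6.18 and 5.08. All PD16 libraries were below all PD14 libraries (2.27 to 2.46 against 2.73 to 2.91), and PD15, at 2.38 to 2.85, overlapped both. The difference from PD14 to PD15, -0.20, was -0.08 without replicate 3 of PD15 and -0.32 without replicate 1, and that from PD15 to PD16, -0.28, was -0.17 without replicate 1 of PD15. This split of the 6 genes by family was described and not tested.

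Over the 9 libraries Zp2 and Zp3 had a Pearson r of 0.98 on the log2 scale, and r was 0.89 after each day's mean was subtracted. Zp1 had r = 0.78 with Zp2 and 0.84 with Zp3, but 0.04 and 0.31 after subtraction of the day means. Replicate 3 of PD15 had the lowest Zp1 of that day (97.1 FPKM) but the highest Zp2 (292 FPKM) and Zp3 (416 FPKM). The r values of Zp1 after subtraction were not computed without this library. Pairs of Oosp genes had r from 0.89 to 0.95, and from 0.84 to 0.87 after subtraction. Zp and Oosp genes had r from 0.16 to 0.69. After subtraction Zp2 had r from 0.76 to 0.78 with the Oosp genes and Zp3 from 0.49 to 0.69, whereas Zp1 had -0.56 with Oosp1, -0.28 with Oosp2 and -0.34 with Oosp3. With all 9 libraries included, Zp2 and Zp3 thus had a higher r within days with each Oosp gene than with Zp1. This order was not examined without replicate 3 of PD15, which also held the highest value of each Oosp gene. In each library all 6 values come from the same RNA and depth, and libraries differed in oocyte marker level, so these r values are descriptions over 9 libraries and carry no test.

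**Figure D3:**
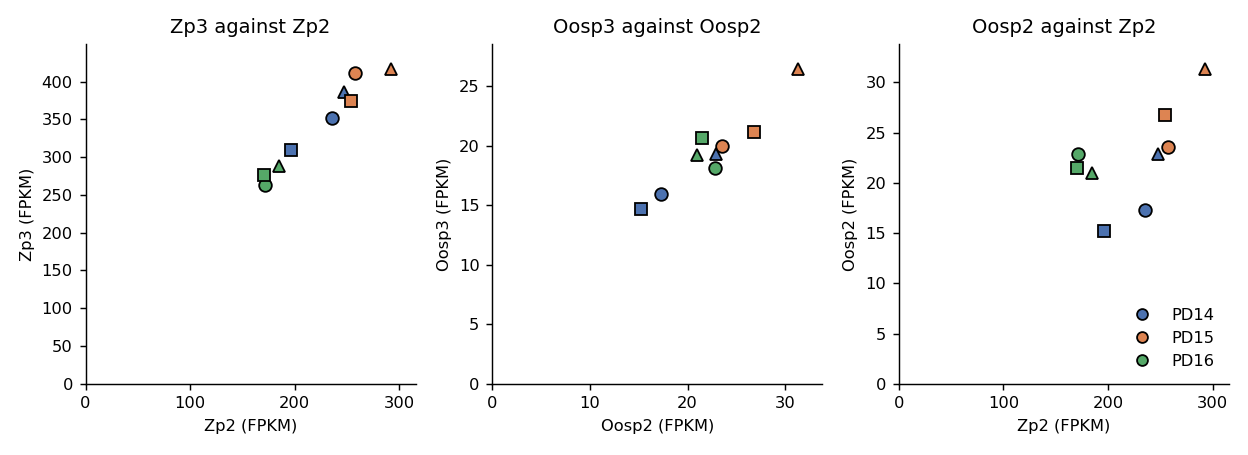
FPKM of pairs of genes in the 9 libraries (both axes from 0), with color for the day and the marker for the replicate number (circle 1, square 2, triangle 3). Zp3 follows Zp2 with the PD16 libraries at the low end, whereas against Oosp2 the PD16 libraries lie left of PD14 at similar Oosp2 levels.

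Since the 6 transcripts are made by oocytes, their changes were set beside those of 29 other oocyte markers. In a whole ovary, fewer oocytes per unit of tissue and less RNA per oocyte cannot be told apart. From PD14 to PD15, 24 of the 29 markers had higher and 5 lower values, with a median log2 difference of 0.13, and from PD15 to PD16 all 29 were lower, 18 of them without overlap (9.73% over all genes tested), with a median of -0.30. From PD14 to PD16, 22 were lower and 7 higher, with a median of -0.16. In each comparison a single marker of 29 passed limma's test, beside 0.678%, 0.729% and 4.25% of all genes for PD15 against PD14, PD16 against PD15 and PD16 against PD14. Nlrp5, a subunit of the subcortical maternal complex, rose from 90.8 to 153 FPKM at PD15 (limma adjusted p = 0.0377) and fell to 92.5 FPKM at PD16 (limma adjusted p = 0.0439). Bmp15, the oocyte growth factor, rose by 0.39 on the log2 scale from PD14 to PD16 (limma adjusted p = 0.0331). The most abundant marker, Padi6, had means of 390, 418 and 293 FPKM, and the least abundant, the receptor gene Gpr3, had means of 2.46, 3.09 and 2.95 FPKM.

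From PD14 to PD15 all 6 genes lay above the marker median, with Zp1 and Zp3 each above 18 of 29 markers, Zp2 above 23, Oosp1 above 25, Oosp2 above 28 and Oosp3 above 27. For PD16 the Zp genes lay toward the lower end of the markers. The difference from PD15 to PD16 was below that of 28 of 29 markers for Zp2 and Zp3 and below that of 26 for Zp1. The Oosp genes lay among the markers, each above 14 to 20 of them. From PD14 to PD16, Oosp2 was above 28 of 29 markers, Oosp3 above 27 and Oosp1 above 25, while Zp2 was above 2, Zp3 above 3 and Zp1 above 5.

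**Figure D4:**
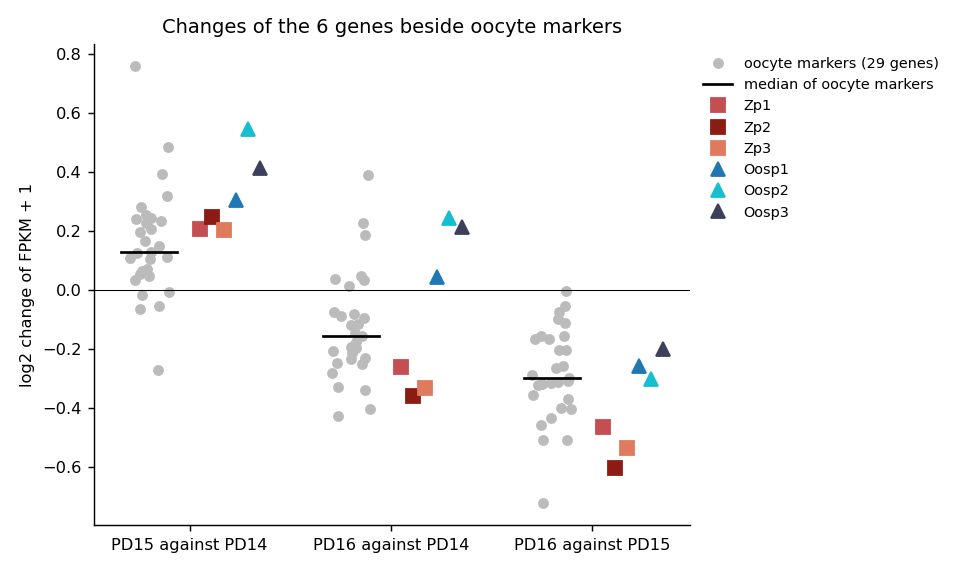
Log2 difference of FPKM + 1 in each comparison for 29 oocyte markers (grey points, with their median as a line) and for the 6 genes (squares for Zp, triangles for Oosp). All 6 genes lie above the marker median for PD15 against PD14, Zp genes lie below it in both comparisons of PD16, and Oosp genes lie above it for PD16 against PD14.

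Within each library, levels were also expressed relative to the mean log2 of the oocyte markers. This mean was 5.26 ± 0.15 at PD14, 5.41 ± 0.08 at PD15 and 5.13 ± 0.04 at PD16 (n = 3). Zp2 exceeded it by 2.57 ± 0.03, 2.66 ± 0.03 and 2.34 ± 0.03, without overlap in any comparison. On this scale 1.57% of all genes tested were higher at PD15 than at PD14 without overlap, 0.936% were lower at PD16 than at PD15, and 3.16% were lower at PD16 than at PD14. The Zp2 difference from PD15 to PD16 was -0.32 on the same scale, beside -0.61 in FPKM. Zp3 exceeded the markers by 3.19 ± 0.04, 3.23 ± 0.07 and 2.98 ± 0.04, again lowest at PD16 without overlap. Zp1 stood at 1.40 ± 0.05, 1.44 ± 0.29 and 1.26 ± 0.07, and PD16 was below PD14 without overlap but overlapped PD15.

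Relative to the same markers, the Oosp genes were higher at PD16 than at PD14 without overlap, as were 19.7% of all genes tested. Oosp2 (by 0.39) and Oosp3 (by 0.25) were also higher at PD15 than at PD14 without overlap, and Oosp1 overlapped. Of all genes tested, 1.57% were higher at PD15 than at PD14 without overlap on this scale. Oosp1 stood at 0.78 ± 0.02, 0.93 ± 0.15 and 0.95 ± 0.08. Oosp2 stood at -0.99 ± 0.18, -0.60 ± 0.13 and -0.62 ± 0.10. Oosp3 stood at -1.12 ± 0.10, -0.87 ± 0.13 and -0.78 ± 0.10. None of the Oosp genes separated PD16 from PD15. These relative levels are descriptions without a test, and the markers are themselves not constant between days.

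**Figure D5:**
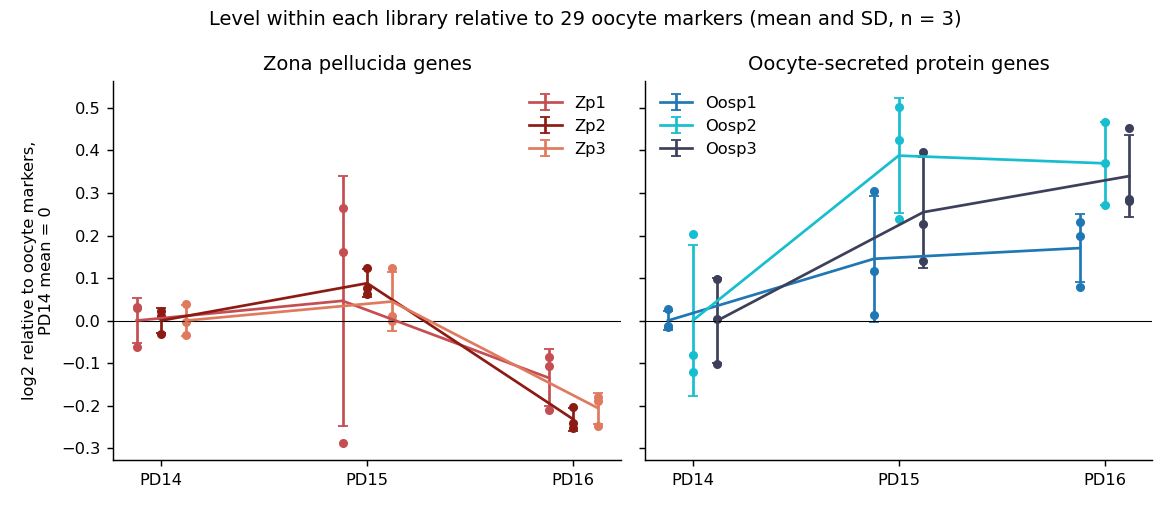
Log2 level of each gene minus the mean log2 of 29 oocyte markers in the same library, set to 0 at the PD14 mean (vertical axis), by day. Points are libraries and error bars are SD (n = 3); Zp2 and Zp3 drop below 0 at PD16, and all Oosp libraries of PD16 lie above 0.

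Markers of other ovarian cells were compared across the same days. The summed FPKM of 12 granulosa cell markers ranged from 3130 to 3829 at PD14, 2969 to 3377 at PD15 and 3095 to 3660 at PD16. Their median log2 difference was -0.11 from PD14 to PD15 and 0.01 from PD15 to PD16, where 6 were higher and 6 lower. That of 8 theca and interstitial markers was -0.24 and 0.10. The part of cell composition in the changes of Zp2 and the other members was not tested.

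Genes that act with the zona or at fertilization were counted as a further group. Of 14 listed, 13 were matched and 10 tested, and 4 of them (Figla, Nobox, Sohlh1 and Lhx8) are also among the oocyte markers. Taf4b, which encodes a germ cell subunit of the transcription factor TFIID, was the only gene of this group called in any comparison. It had means of 5.61 ± 0.854, 9.82 ± 1.06 and 11.5 ± 2.06 FPKM (n = 3) and rose by 0.91 ± 0.14 on the log2 scale from PD14 to PD16 (limma adjusted p = 0.0138). Astl, which encodes ovastacin, the protease that cleaves ZP2, had means of 74.8, 78.1 and 60.1 FPKM, with a log2 difference of -0.37 from PD15 to PD16 (limma adjusted p = 0.123). Nobox had means of 52.2, 51.4 and 40.8 FPKM (PD14 to PD16, limma adjusted p = 0.0752). Cd9, whose tetraspanin is needed on the egg for sperm fusion, had means of 29.6, 30.0 and 28.5 FPKM. Figla, named here for its role and not by its level, had means of 19.8, 18.8 and 16.4 FPKM, and its limma adjusted p was 0.466 or more in the 3 comparisons. The median of the group was 0.03 for PD15 against PD14, -0.14 for PD16 against PD14 and -0.16 for PD16 against PD15.

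Other genes with a ZP domain gave 0 calls in limma among 5 tested of 11 matched. Over all genes tested, 0.678%, 4.25% and 0.729% were called for PD15 against PD14, PD16 against PD14 and PD16 against PD15. In the same order, 1, 0 and 2 of the 5 had an unadjusted limma p below 0.05, a count without a share over all genes. At PD16 against PD15, 4 of the 5 were higher and 1 was lower, with a median log2 difference of 0.20, whereas the Zp genes were lower. Of the 4, 2 were higher without overlap. The share of all genes higher without overlap was not computed there, so this count has no baseline. Zpld1 had means of 31.5 ± 12.8, 13.6 ± 3.89 and 23.4 ± 5.86 FPKM, with a log2 difference of -1.12 from PD14 to PD15 (limma adjusted p = 0.140). Eng, the endothelial TGF-beta coreceptor, had means of 20.3, 19.2 and 22.1 FPKM. Of the relatives of the Oosp genes, Plac1 was matched, at 0.297 to 1.05 FPKM, and was too low to be tested.

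Outside the 6 members, whose r with each other is given above, the genes with log2 levels most like those of a member over the 9 libraries were listed by Pearson r. For Zp2 they were Dppa5a (0.985), Ooep (0.980), which encodes a subunit of the subcortical maternal complex, and an unnamed locus (0.976). The same unnamed locus (0.980), the zinc finger gene Zfp57 (0.978) and another unnamed locus (0.977) were nearest to Zp3. Zp1 was nearest to Vrtn (0.982), Zbed3 (0.982) and Mroh1 (0.974). Oosp1 was nearest to Txndc9 (0.974), Macrod2 (0.964) and Trim13 (0.963). Oosp2 and Oosp3 shared their nearest gene outside the members, Nlrp9a, with r = 0.968 for each, followed by E030024N20Rik (0.940) and BC051226 (0.938) for Oosp2 and by Cenpw (0.966) and Scel (0.939) for Oosp3. These genes were the highest of all genes tested with the members left out, over 9 libraries, and the r values carry no test.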

How the data were processed

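RNA-Seq libraries of ovaries at PD14, PD15 and PD16 were analyzed (n = 3 each). The authors deposited FPKM for each gene and library. Per the submitters' processing notes, HISAT2 2.0.5 and mm10 were used; the annotation and the counting tool are not given in the sources used here. Fragment numbers were recovered from the FPKM steps with GENCODE M21 exon lengths, counting low values (under 50 fragments) as whole within 0.02 fragments.

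Values were used as log2(FPKM + 1), which understates changes of low genes. A gene was tested where its FPKM averaged over 1 in any of the 3 age groups (15495 genes, including all 6 members), and these entered a single limma fit with trend over the 9 libraries, with two-sided tests and Benjamini-Hochberg adjustment over all genes (threshold 0.05). On simulated data for PD16 against PD14 (15495 genes, 200 changed), 60.5% of log2 changes of 0.5 and 92.5% of changes of 1 were recovered. Libraries were grouped by the labelled day.

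The members and lists were chosen with earlier results of these data known. Named were all members, up to 6 genes of the zona, ZP domain and Oosp lists (called genes, then by mean FPKM), the 3 genes nearest to each member (other members left out), and oocyte markers that were called or had the highest or lowest mean. Oocyte, granulosa, theca, stromal, endothelial and blood, oviduct, fat and muscle marker lists were used. Alternatives were other pseudocounts (0.1 and 0.5), filters, scalings, limma settings, a replicate block and leaving out each library. The fit used limma 3.58.1 in R 4.3.3, and summaries and plots used pandas 2.3.3, NumPy 2.4.6 and Matplotlib 3.10.9 in Python 3.11.15.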

Additional observations from a re-analysis of the deposited data

How the results depend on the processing

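Of 342 values of the members' log2 changes under alternatives, 324 kept their direction and their side of the threshold, 8 passed it, 9 no longer passed it and 1 changed sign. The sign change was Oosp1 at PD16 against PD14, -0.026 without PD14 replicate 2 (range over left-out libraries -0.026 to 0.092). None of 420 alternative ratio differences moved by more than 1 SD between libraries, an SD that includes the library left out, but 14 of them changed sign. In limma, members called for PD16 against PD14 numbered 1 after scaling to TPM (Zp2) and 0 to 1 with single libraries left out. For PD16 against PD15 there were 0 with no filter, 2 each with a mean FPKM above 5, median-ratio scaling, TPM and no trend (Zp2 and Zp3), and 0 to 2 with single libraries left out. Zp2 was called there in 10 of 19 alternatives (adjusted p 0.0216 to 0.133), and the only left-out library that kept the call was PD14 replicate 2. Zp1 was called once, without PD15 replicate 3 (limma adjusted p = 0.0496).

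Genes called over the whole table for PD15 against PD14 were 105, and 29 with no filter, 63 with a mean FPKM above 5, 46 with only the days compared, and 3 (without PD15 replicate 1) to 92 with single libraries left out. For PD16 against PD14 they were 659, and 172 with no filter, 397 with TPM, 323 with only the days compared, and 92 (without PD16 replicate 1) to 660. For PD16 against PD15 they were 113, and 24 with no filter and 14 (without PD15 replicate 1) to 125. With the replicate number as a block, 24, 227 and 56 genes were called in the 3 comparisons, and Zp2 kept its call at PD16 against PD15 (limma adjusted p = 0.0498). No pairing of libraries by replicate number was seen, as 2 of 9 same-numbered pairs had a correlation of deviations above 0.1 (range -0.21 to 0.16). Pairs with different numbers ranged from -0.20 to 0.21. With 3 libraries per day, these correlations cannot exclude a weak pairing. The cause of the differences between the numbers of calls was not tested. Among the members, Oosp2 and Oosp3 had the fewest fragments, with a counting SD of 6.34% and 5.85% at their fewest. Between libraries the SD of Oosp2 was 21.5%, 14.3% and 4.56% of its mean at PD14, PD15 and PD16. For Oosp3 it was 14.2%, 15.3% and 6.50%. The part of depth in these spreads was not tested.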

Other observations

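Counts at an unadjusted p are given below without a share over all genes. Other marker lists are given by their median log2 differences for PD15 against PD14, PD16 against PD14 and PD16 against PD15, with calls from limma. Over all genes tested, 0.678%, 4.25% and 0.729% were called in these comparisons. For 7 stromal markers the medians were -0.09, -0.09 and 0.08 with 0 calls (unadjusted p below 0.05 in limma for 2, 0 and 1). For 9 endothelial and blood cell markers tested they were -0.12, -0.17 and 0.01, with 1 call lower in the first of these and 1 higher in the next (unadjusted p below 0.05 in limma for 4, 4 and 1). The globin genes Hba-a1, Hbb-bs, Hbb-bt and Hba-a2 had log2 differences of -1.35, -0.91, -1.02 and -1.17 for PD15 against PD14. At PD16 against PD15 these were 0.82, 0.46, 0.50 and -0.67. For 6 oviduct and epithelial markers they were -0.19, -0.34 and -0.19, with 3 called lower at PD16 against PD14. At PD16 against PD15, where Zp2 was called, all 6 had lower values, 3 of them without overlap, as had 9.73% of all genes tested. Of the 6, 0 were called (unadjusted p below 0.05 in limma for 3). For 5 muscle markers they were 0.07, 0.25 and 0.22, with 1 called higher at PD16 against PD14. At PD16 against PD15 all 5 had higher values, 0 without overlap, and 0 were called (unadjusted p below 0.05 in limma for 1). The part of these lists in the change of Zp2 was not tested. The only fat marker tested was called lower at PD15 and at PD16 against PD14, and its difference at PD16 against PD15 was 0.10. Of 12 granulosa cell markers, 1 was called higher and 2 lower at PD16 against PD14. An unadjusted limma p below 0.05 was found for 5, 7 and 5 of them in the 3 comparisons. At PD16 against PD15, 2 of them were lower without overlap, as were 9.73% of all genes tested. Another 3 were higher without overlap, and the share of all genes in that direction was not computed. Of 8 theca and interstitial markers none was called in the 3 comparisons, with an unadjusted limma p below 0.05 for 2, 2 and 1 of them.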
